A study of Homo sapiens with 18 samples.

Results

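The Hedgehog pathway genes examined here were GLI1, GLI2, GLI3, PTCH1, SMO, SUFU, KIF7, GPR161 and HHIP, taken by symbol from a table of 26668 gene symbols, and all 9 were found in it. RNA was sequenced from PANC1, MIA PaCa-2 and PATU8988T, 3 established pancreatic cancer cell lines, with 3 control and 3 OFD1 knockdown libraries of each, 18 in all. The methods of the study describe lines carrying a Tet-on shRNA against OFD1, a hairpin switched on by doxycycline, given DMSO or doxycycline for 72 h. The labels give the control groups as WT, with a control shRNA and no treatment, and the knockdown groups as shOFD1 after doxycycline, and the series text names days 0 and 3. Whether the controls were uninduced cells or separately made cells was not settled here, and in either case doxycycline was given to the knockdown cultures only, so its effect cannot be told apart from that of the hairpin. The source labels of replicates 2 and 3 of PATU8988T name other lines (PaTu 8989T and PaTu 8990T), and the sample titles were followed. No label says whether replicates were separate cultures, so the p-values measure the spread between these libraries, which may be technical.

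Hedgehog ligands such as SHH bind the receptor PTCH1, which otherwise holds the transducer SMO inactive. Released SMO gathers in the primary cilium, where the GLI transcription factors are freed from SUFU and are no longer processed into repressors, a step in which the kinesin KIF7 and the receptor GPR161 take part at the cilium. GLI1, PTCH1 and HHIP are direct target genes and serve as readouts of pathway activity, and OFD1 is a protein of the centrioles and centriolar satellites needed to build the cilium. Whether these genes changed when OFD1 was reduced is the question each comparison addressed.

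The promoter of PTCH1 is shown because PTCH1 was the member that was fitted in all lines and whose change differed most between them. RefSeq promoters on GRCh38.p14, each of 300 bases (250 before a transcript start and 50 after it), were listed for 7 of the 9 members in 16 windows, of which 5 belonged to PTCH1. The word GACCACCCA, the core of the GLI binding site, was searched on both strands. It was present in 83 of 35116 promoter windows of all genes (0.236%) and, among the members with a window, in 1 of PTCH1, where capitals mark its reverse complement, TGGGTGGTC, starting at base 79. The second window, at the start farthest upstream, did not hold these letters. Both are written 5′ to 3′ on the minus strand.
PTCH1, chr9:95509217-95509516: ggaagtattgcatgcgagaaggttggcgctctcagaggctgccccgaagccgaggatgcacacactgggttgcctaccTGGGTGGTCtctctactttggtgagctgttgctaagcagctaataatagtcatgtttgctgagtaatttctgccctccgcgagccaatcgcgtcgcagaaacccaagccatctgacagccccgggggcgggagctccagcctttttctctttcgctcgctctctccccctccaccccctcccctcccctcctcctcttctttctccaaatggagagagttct
PTCH1, chr9:95516922-95517221: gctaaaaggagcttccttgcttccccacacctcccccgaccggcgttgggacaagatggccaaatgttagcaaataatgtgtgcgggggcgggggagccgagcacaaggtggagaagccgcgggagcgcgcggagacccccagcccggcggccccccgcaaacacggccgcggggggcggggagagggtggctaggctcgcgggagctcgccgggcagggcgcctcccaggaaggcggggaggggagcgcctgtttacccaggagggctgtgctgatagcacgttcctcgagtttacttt
The values below are sums over all transcripts of a gene, so the starts in use could not be told apart.

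The deposited values were FPKM, which divide the reads of a gene by gene length and library total, and between 32486479 and 39797537 reads were counted per library. MIA PaCa-2 control replicate 2 stood apart from the other libraries. Its median absolute log2 difference from the other controls of its line was 0.4001 and 0.404, against 0.0749 to 0.139 in the 16 other pairs of replicates, and 5 of the 7 members fitted in that line were highest in it among the controls. Changes named in MIA PaCa-2 are therefore also given without it. OFD1 itself fell in every line, by log2 fold changes of -1.07 (PANC1, adjusted p = 4.67e-06), -0.61 (MIA PaCa-2, adjusted p = 0.0252) and -1.10 (PATU8988T, adjusted p = 0.000116). In MIA PaCa-2 the change was -0.76 (adjusted p = 0.00017) without that control, and leaving out any other library raised its adjusted p above 0.05, to at most 0.0946. Of 6 epithelial markers, 6 averaged at least 1 FPKM in PANC1 and 3 in each other line. KRT8 and KRT18 were above 300 FPKM in every group. EPCAM and CDH1 were below 0.04 FPKM in MIA PaCa-2, and KRT19 was below 0.01 in PATU8988T. KRT7 was below 1 FPKM in both of these lines, and CDH1 averaged 0.276 FPKM in the PATU8988T control and 0.105 after knockdown. In MIA PaCa-2, the summed level of 6 fibroblast markers ranged from 158 to 188 FPKM in the control and 234 to 236 after knockdown. This was mostly COL1A2, with COL3A1 at 6.37 FPKM in the control and 30.1 after knockdown, and DCN at or near 0. In the same line, 6 leukocyte markers summed to 2.46 to 4.63 and 5.92 to 6.27 FPKM, mostly PTPRC, with CD3E listed at 0. The fibroblast markers summed to 35.3 to 37.3 and 40.3 to 40.7 FPKM in PANC1, mostly COL1A1 and COL3A1. They summed to 2.91 to 3.29 and 3.07 to 3.75 FPKM in PATU8988T. CD14, a leukocyte marker, averaged 1.28 and 0.594 FPKM in PANC1. The part of these differences in the results below was not tested.

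The 3 lines differed in which Hedgehog genes were read. In the PANC1 control, GLI1 was highest at 3.78 ± 0.191 FPKM (SD, n = 3), followed by SUFU, KIF7, PTCH1 and GLI2, each with all control libraries below those of the gene before it. GLI3, GPR161, HHIP and SMO followed at 0.162 to 0.0831 FPKM, and neighbours in that order overlapped. In the MIA PaCa-2 control, SMO was highest at 11.03 ± 3.06 FPKM (SD, n = 3) and SUFU second at 5.04 ± 0.88, and KIF7, PTCH1 and GLI2 did not separate from their neighbours in the order. GLI1 was below all of these at 0.224 ± 0.128 FPKM. In the PATU8988T control, SMO again led at 9.40 ± 0.409 FPKM, followed by SUFU, GPR161, PTCH1 and KIF7, all separate from each other, and then by GLI1 at 0.0577 ± 0.00796. For some members and OFD1 the lengths behind the PANC1 values were not the ones used for the other lines. They were 4062 against 4452 bases for GLI1 and 4150 against 9312 for OFD1. Levels were therefore ranked within a line only. PTCH1 had the same length of 9856 bases in all 3 lines, and SUFU had 6260 bases in PANC1 against 6337 in the other lines. For genes whose lengths differed, the part of the lengths in differences of changes between lines was not tested. SMO had the same length of 4787 bases in all 3 lines. Its reads numbered 5 to 19 per library in PANC1, against 1703 to 2773 in MIA PaCa-2 and 1321 to 1744 in PATU8988T. In GRCh38, the last 3771 bases of SMO (chromosome 7, 129188872 to 129213545, plus strand) overlap an antisense gene, AC011005.4, and how reads there were assigned was not given in the sources used here.

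**Figure D1:**
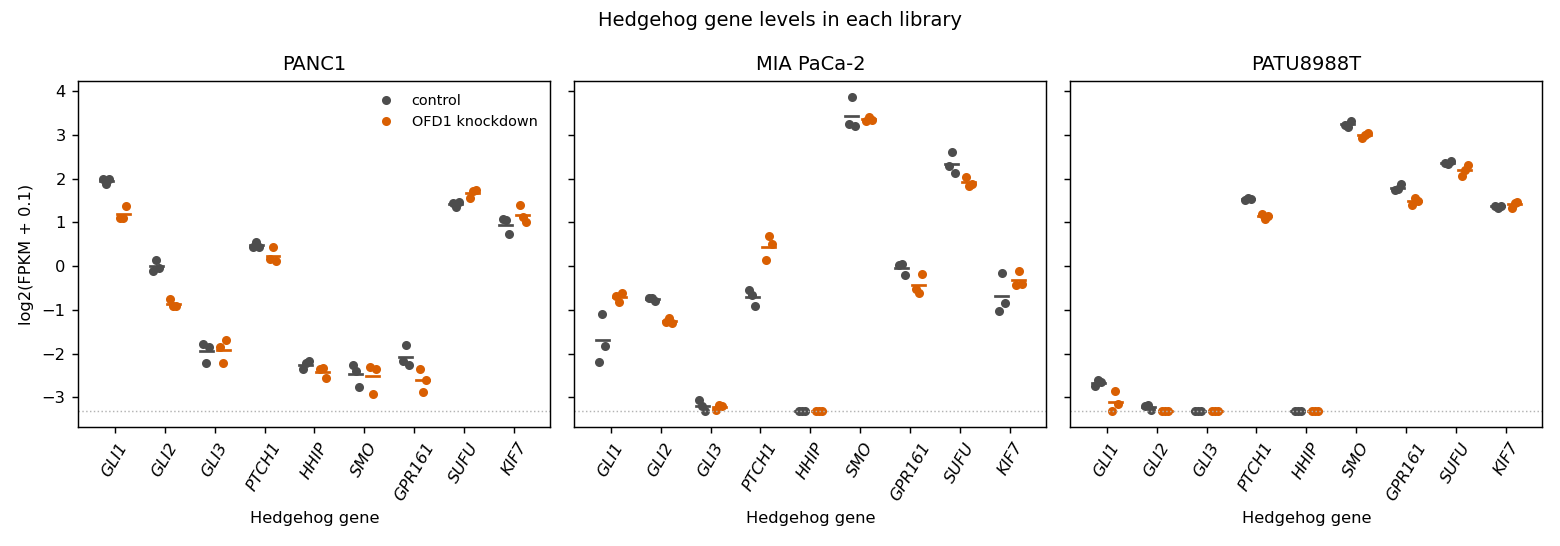
Level of each Hedgehog gene in each library, as log2(FPKM + 0.1), in 3 panels for PANC1, MIA PaCa-2 and PATU8988T. Points are libraries (grey, control, and orange, OFD1 knockdown, 3 each), bars are means, and the dotted line is an FPKM of 0. GLI1 was the highest member in the PANC1 control and lay near the dotted line in PATU8988T, whereas SMO was the highest in MIA PaCa-2 and PATU8988T and near the bottom in PANC1.

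Genes with a mean of at least 0.1 FPKM over the 6 libraries of a line were tested with limma on log2(FPKM + 0.1), and p-values were adjusted over all genes of the line. In PANC1, 7 of the 9 members were fitted, leaving out SMO and HHIP. HHIP missed the filter at 0.0995 FPKM and GPR161 passed it at 0.102. MIA PaCa-2 also had 7 fitted members, without GLI3 and HHIP, and PATU8988T had 5, without GLI1, GLI2, GLI3 and HHIP. At an adjusted p below 0.05, GLI1 and GLI2 fell and SUFU rose in PANC1, so that 3 of 7 members were called, whereas 66.1% of the 12950 genes fitted in that line were called (29.5% lower and 36.6% higher). In MIA PaCa-2, GLI1 and PTCH1 rose and GLI2 fell, 3 of 7, with a background of 35.6% of 14103 genes (17.5% lower and 18.1% higher). In PATU8988T, PTCH1, SMO and GPR161 fell, 3 of 5, with a background of 31.4% of 14142 genes (16% lower and 15.5% higher). The share of members called was below the background in PANC1, near it in MIA PaCa-2 and above it in PATU8988T, where only 5 were fitted. With these settings PTCH1 in MIA PaCa-2 was the one member that also passed a fold change above 2 or below 0.5, while GLI1 in that line lay at 1.99. GLI1 passed both rules without control replicate 2 (log2 fold change 1.29), with voom on recovered reads (1.33) and with upper quartile scaling (1.07). It also passed both with a pseudocount of 0.01. The rule was met by 9.15% of genes there, 8.06% in PANC1 and 1.78% in PATU8988T. The libraries of the groups did not overlap for 4 fitted members in each line, against 70.2%, 55% and 46.6% of all genes fitted in PANC1, MIA PaCa-2 and PATU8988T. The median log2 fold change of the fitted members was -0.25, -0.08 and -0.25, beside 0.06, 0.02 and 0.01 for all fitted genes.

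**Figure D2:**
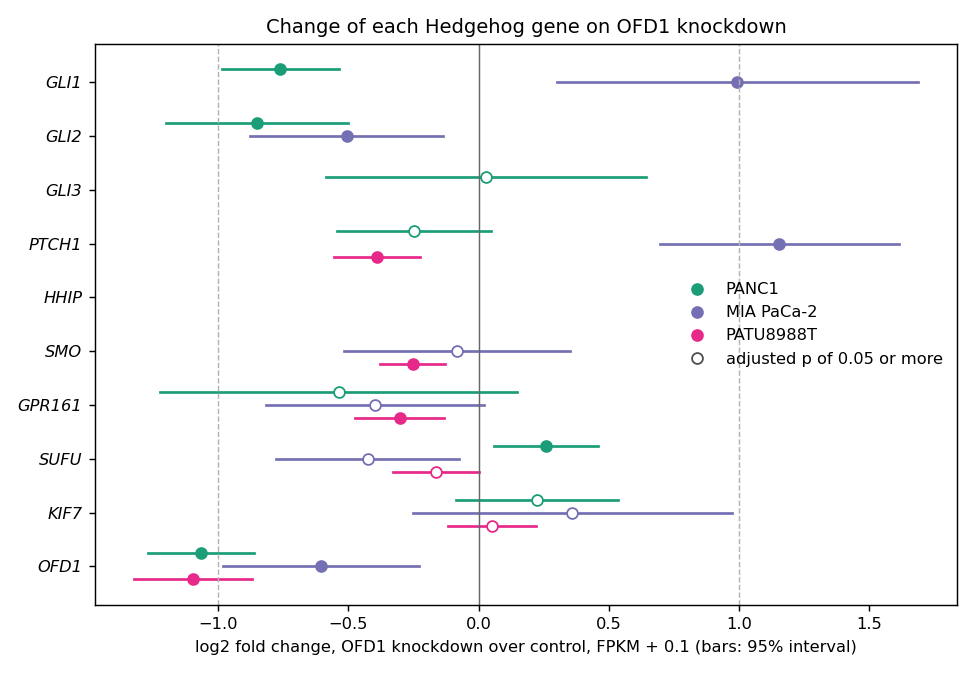
Log2 fold change of each Hedgehog gene and of OFD1, knockdown over control, on the scale of FPKM + 0.1, with 95% intervals from limma. Colours are the lines, filled points have an adjusted p below 0.05, dashed lines mark a 2-fold change, and genes below the filter in a line have no point. GLI1 lay at -0.76 for PANC1 and 0.99 for MIA PaCa-2, and PTCH1 at 1.16 in MIA PaCa-2 but -0.39 in PATU8988T.

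GLI1, the transcription factor that is itself switched on by the pathway, moved in opposite directions in PANC1 and MIA PaCa-2. In PANC1 it measured 3.91, 3.56 and 3.87 FPKM in control replicates 1, 2 and 3, and 2.06, 2.03 and 2.50 FPKM in knockdown replicates 1, 2 and 3. Every knockdown library was below every control library. The log2 fold change was -0.76 (SE 0.0995, adjusted p = 9.54e-05), and between 535 and 572 reads per control library and 270 and 348 per knockdown library lay behind it.

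In MIA PaCa-2, GLI1 measured 0.120, 0.367 and 0.184 FPKM in the controls and 0.521, 0.467 and 0.557 FPKM after knockdown. All knockdown libraries were above all controls, of which replicate 2, the library that stood apart, was the highest. The log2 fold change was 0.99 (SE 0.293, adjusted p = 0.0375) and 1.29 (adjusted p = 0.00126) without that control. The adjusted p ranged from 0.00126 to 0.116 over 12 alternatives, and leaving out any other library of the line put it above 0.05. Reads numbered 21, 65 and 32 in the controls and 90, 79 and 95 after knockdown. In a fit of the 12 libraries of both lines, added after the data were seen, the change in PANC1 minus that in MIA PaCa-2 was -1.76 (95% interval -2.44 to -1.07, adjusted p = 0.00145), where 33.4% of 11465 genes differed, and -2.06 (adjusted p = 1.69e-06) without the control that stood apart. In PATU8988T, 8, 10 and 10 reads of GLI1 were counted in the controls and 0, 6 and 2 after knockdown. The groups did not overlap (p = 0.1 by a two-sided exact permutation test, the minimum possible with 3 libraries against 3), and the gene was below the filter. With voom on recovered reads and no filter, added after the data were seen, its adjusted p was 0.0299, and 0.0654 on FPKM with no filter.

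A neighbour of GLI1 moved with it in PANC1 and MIA PaCa-2. INHBE, which encodes a subunit of activin E and was named after its values were seen, lies 854 bases upstream of GLI1 on the same strand (GRCh38 chromosome 12, 57452323 to 57459280, with GLI1 from 57460135 to 57472262). In MIA PaCa-2 it measured 0.436, 0.878 and 0.520 FPKM in the controls and 9.63, 10.2 and 10.6 FPKM after knockdown, a log2 fold change of 3.90 (adjusted p = 0.00017), or 4.15 without control replicate 2. In PANC1 it averaged 0.351 ± 0.127 FPKM in the control and 0.159 ± 0.0192 after knockdown (SD, n = 3 each), a change of -0.77 on the log2 scale (adjusted p = 0.0251). This came from 22 to 44 reads per control library and 11 to 14 per knockdown library. In PATU8988T, INHBE was below the filter, with 0, 2 and 0 reads in the controls and 7, 2 and 2 after knockdown, where GLI1 had fewer reads after knockdown. Whether reads of INHBE transcripts were counted on GLI1 was not tested. Beside these calls of INHBE, 29.5% of all fitted genes were called lower in PANC1 and 18.1% higher in MIA PaCa-2. ARHGAP9 overlaps the end of GLI1 by 8 bases on the other strand. Its log2 fold change was 0.04 in PANC1 (adjusted p = 0.947), and it was below the filter in MIA PaCa-2.

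GLI2, the main activator among the GLI factors (chromosome 2, 120735623 to 120992653, plus strand), fell in both lines where it was fitted. In PANC1 it measured 0.822, 0.998 and 0.875 FPKM in the controls and 0.493, 0.431 and 0.434 FPKM after knockdown. The groups did not overlap, and the log2 fold change was -0.85 (SE 0.155, adjusted p = 0.000889). The MIA PaCa-2 libraries measured 0.508, 0.505 and 0.475 FPKM in the controls and 0.316, 0.339 and 0.304 FPKM after knockdown. Here, too, every knockdown library was lower. The log2 fold change was -0.51 (SE 0.156, adjusted p = 0.0431), and -0.50 (adjusted p = 0.0469) without control replicate 2, with adjusted p from 0.0106 to 0.133 over 12 alternatives. Leaving out any library other than that control put it above 0.05. The changes in PANC1 and MIA PaCa-2 differed by -0.34 (95% interval -0.74 to 0.05, adjusted p = 0.168, fit of 12 libraries added after the data were seen). In PATU8988T, 9 reads were counted over the 3 controls and 0 over the 3 knockdown libraries, where voom without a filter gave an adjusted p of 0.00792 and FPKM without a filter 0.276.

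GLI3, the main repressor of the family (chromosome 7, 41960950 to 42237870, minus strand), was fitted in PANC1 only, at 0.162 ± 0.0412 FPKM in the control and 0.167 ± 0.0478 after knockdown (SD, n = 3 each). The groups overlapped, and the log2 fold change was 0.03 (95% interval -0.59 to 0.64, adjusted p = 0.934), and its sign turned when control replicate 2, knockdown replicate 1 or knockdown replicate 3 was left out. In MIA PaCa-2, 16 reads were counted over the controls and 12 over the knockdown libraries, and GLI3 was listed at 0 in PATU8988T.

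PTCH1, the receptor and a target of the pathway (GRCh38 chromosome 9, 95442980 to 95517057, minus strand), was fitted in all 3 lines. In MIA PaCa-2 it measured 0.583, 0.535 and 0.429 FPKM in the controls and 1.01, 1.51 and 1.31 FPKM after knockdown. Every knockdown library was above every control library. The log2 fold change was 1.16 (SE 0.194, adjusted p = 0.00499), and 1.18 (adjusted p = 0.00121) without control replicate 2, and the adjusted p was at most 0.0296 in 12 alternatives, with changes from 0.58 to 1.30 on the log2 scale. The gene overlaps 3 antisense genes, by 456, 1402 and 476 bases. In PATU8988T, PTCH1 went the other way, from 2.75, 2.83 and 2.78 FPKM to 2.17, 2.02 and 2.12. The groups did not overlap, and the log2 fold change was -0.39 (SE 0.0728, adjusted p = 0.00429). In PANC1 it measured 1.25, 1.38 and 1.27 FPKM in the controls and 1.01, 1.25 and 0.982 after knockdown. Knockdown replicate 2 reached just above the lowest control, and the log2 fold change was -0.25 (95% interval -0.54 to 0.05, adjusted p = 0.125). It passed with voom on recovered reads (adjusted p = 0.0408) and without that replicate (-0.35, adjusted p = 0.0491), within a range of 0.0408 to 0.294 over 13 alternatives.

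The change of PTCH1 in MIA PaCa-2 differed from that in both other lines. In a fit of all 18 libraries, the change in MIA PaCa-2 minus that in PATU8988T was 1.55 (95% interval 1.148 to 1.94, adjusted p = 5.5e-06), a comparison in which 50.3% of 10944 genes differed. The change in PANC1 minus that in MIA PaCa-2 was -1.40 (95% interval -1.80 to -1.004, adjusted p = 2.69e-05), where 41.2% of genes differed. PANC1 minus PATU8988T gave 0.14 (95% interval -0.26 to 0.54, adjusted p = 0.597), where 34.3% of genes differed. Without MIA PaCa-2 control replicate 2, the differences of MIA PaCa-2 were 1.57 and -1.43. HHIP, a target gene whose product binds ligand at the cell surface (chromosome 4, 144646021 to 144745271, plus strand), measured 0.111 ± 0.0143 FPKM in the PANC1 control and 0.0883 ± 0.0156 after knockdown (SD, n = 3 each), with overlapping groups (exact permutation test, two-sided, p = 0.3), and it was listed at 0 in the other 2 lines. HHIP-AS1 on the other strand overlaps it by 15337 bases.

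**Figure D3:**
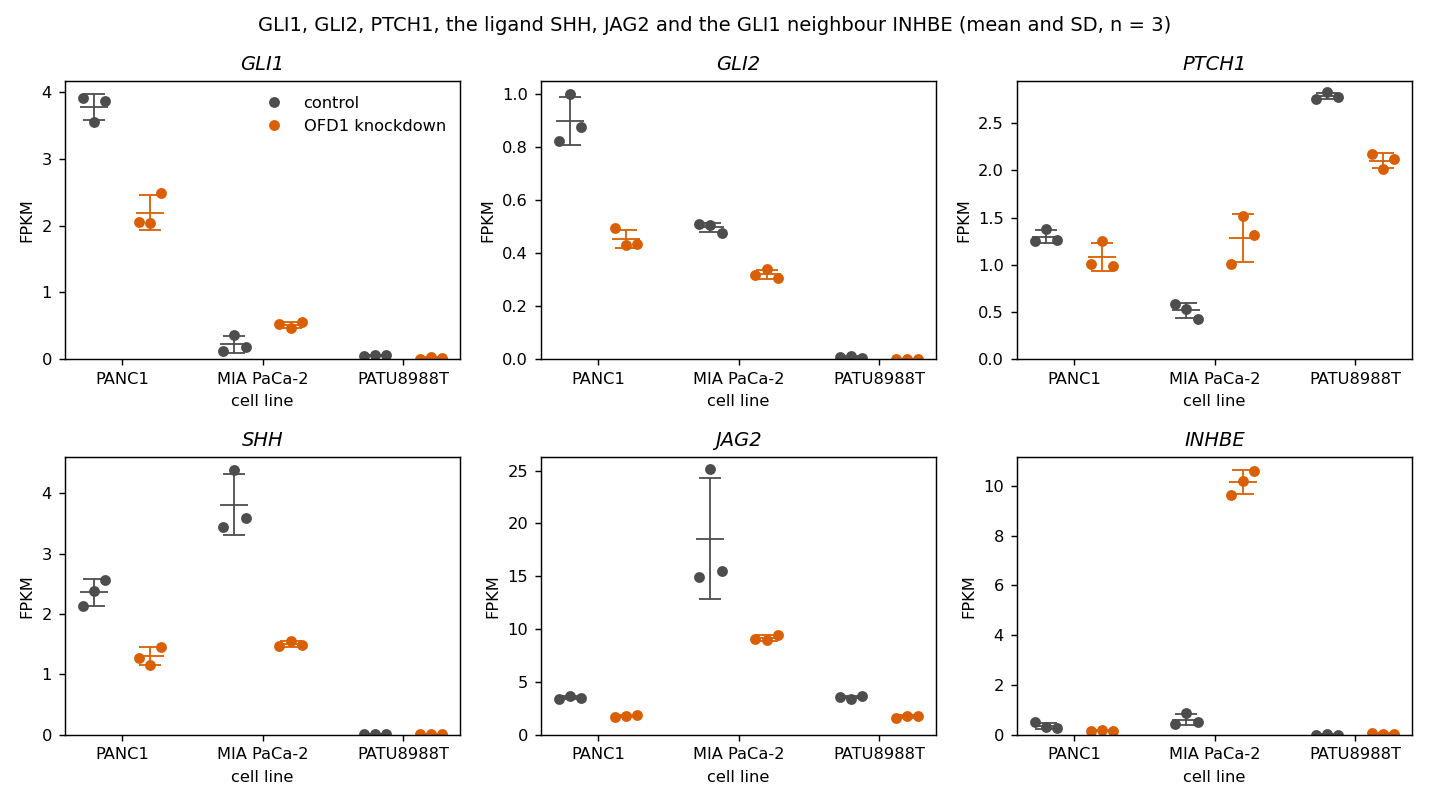
FPKM of GLI1, GLI2, PTCH1, the ligand gene SHH, the target gene JAG2 and INHBE, the neighbour of GLI1, in each library of the 3 lines. Points are libraries (grey, control, and orange, OFD1 knockdown), bars are the mean and SD of 3 libraries, and each panel has its own axis from 0. PTCH1 was higher after knockdown in MIA PaCa-2 and lower in PATU8988T, while JAG2 was lower in all 3 lines.

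SMO, the transducer freed by PTCH1, measured 9.33, 9.02 and 9.83 FPKM in the PATU8988T controls and 7.52, 7.95 and 8.13 FPKM after knockdown. All knockdown libraries were lower, with a log2 fold change of -0.25 (SE 0.0551, adjusted p = 0.00878). In MIA PaCa-2 it measured 9.42, 14.6 and 9.11 FPKM in the controls and 9.91, 10.5 and 10.0 FPKM after knockdown. One control lay above and the other two below all knockdown libraries. The log2 fold change was therefore -0.08 (adjusted p = 0.749) with control replicate 2, and 0.13 (SE 0.0458, adjusted p = 0.0365) without it, and the sign also turned with upper quartile scaling of all libraries (0.00939), so no direction is given for this line. The change in MIA PaCa-2 minus that in PATU8988T was 0.17 (95% interval -0.27 to 0.61, adjusted p = 0.536) in a fit of 12 libraries, where 41.5% of genes differed. In PANC1, 43 reads were counted over the controls and 37 over the knockdown libraries.

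GPR161, a receptor of the cilium that keeps protein kinase A active and the pathway off (chromosome 1, 168079543 to 168137667, minus strand), was lower after knockdown in PATU8988T, at 3.26, 3.27 and 3.56 FPKM in the controls and 2.55, 2.86 and 2.71 FPKM after knockdown. The groups did not overlap, and the log2 fold change was -0.30 (SE 0.0756, adjusted p = 0.016, range 0.00187 to 0.0647 over 13 alternatives). Only without control replicate 3 was it above 0.05 among these. In MIA PaCa-2 it was -0.40 (95% interval -0.82 to 0.02, adjusted p = 0.121, and 0.126 without control replicate 2). In PANC1, 144 reads over the controls and 62 over the knockdown libraries gave -0.54 (95% interval -1.22 to 0.15, adjusted p = 0.147) on FPKM + 0.1, with an adjusted p of 0.0474 without the filter, and -1.16 (adjusted p = 0.0236) with voom on recovered reads. Its changes in the 3 lines did not differ at an adjusted p below 0.05, with intervals of the differences reaching from -0.71 to 0.38.

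SUFU, which holds GLI proteins in the cytoplasm (chromosome 10, 102503987 to 102633535, plus strand), rose slightly in PANC1, from 2.63, 2.45 and 2.65 FPKM to 2.84, 3.21 and 3.26. The groups did not overlap, and the log2 fold change was 0.26 (SE 0.0883, adjusted p = 0.0261, range 0.0102 to 0.0852 over 13 alternatives). It was above 0.05 without control replicate 2 (0.0828) or knockdown replicate 2 (0.0763) or 3 (0.0852). In MIA PaCa-2 the controls measured 4.81, 6.01 and 4.29 FPKM and the knockdown libraries 4.04, 3.44 and 3.603. All knockdown libraries were lower, but the log2 fold change of -0.43 (SE 0.148) had an adjusted p of 0.0629, falling to 0.0205 (-0.29) without control replicate 2 and 0.0465 (-0.53) without control replicate 3. In PATU8988T it was -0.16 (95% interval -0.33 to 0.00, adjusted p = 0.12). The change in PANC1 was above that in MIA PaCa-2 by 0.68 (95% interval 0.36 to 1.01, adjusted p = 0.00196), or 0.55 (adjusted p = 0.000689) without that control, and above that in PATU8988T by 0.42 (95% interval 0.10 to 0.75, adjusted p = 0.0412, range 0.00482 to 0.105 over 17 alternatives). The latter rose above 0.05 on leaving out any control or knockdown replicate 2 of either line, knockdown replicate 3 of PANC1 or knockdown replicate 1 of PATU8988T, and its lowest value came from the fit of the 12 libraries of these lines, where 52.6% of genes differed.

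KIF7, the kinesin at the tip of the cilium (chromosome 15, 89608789 to 89655451, minus strand), did not pass the test in any line with all libraries. Its log2 fold change was 0.22 in PANC1 (95% interval -0.09 to 0.54, adjusted p = 0.179), 0.36 in MIA PaCa-2 (95% interval -0.25 to 0.97, adjusted p = 0.312) and 0.05 in PATU8988T (95% interval -0.12 to 0.22, adjusted p = 0.645). In MIA PaCa-2 the controls measured 0.389, 0.797 and 0.455 FPKM and the knockdown libraries 0.637, 0.829 and 0.651. Control replicate 2 alone overlapped the knockdown libraries, and leaving it out gave a log2 fold change of 0.62 (SE 0.179, adjusted p = 0.0172). KIF7 shares 22268 bases with TICRR on the other strand. TICRR fell in PANC1 with a log2 fold change of -1.28 (adjusted p = 4.73e-06) and in PATU8988T with -0.19 (adjusted p = 0.04). In MIA PaCa-2, TICRR measured 7.47, 7.70 and 7.55 FPKM in the controls and 6.40, 6.42 and 6.50 after knockdown (-0.23, adjusted p = 0.0734). The use of strand in counting was not given in the sources used here, so reads of the overlapping parts of the genes could not be told apart.

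**Figure D4:**
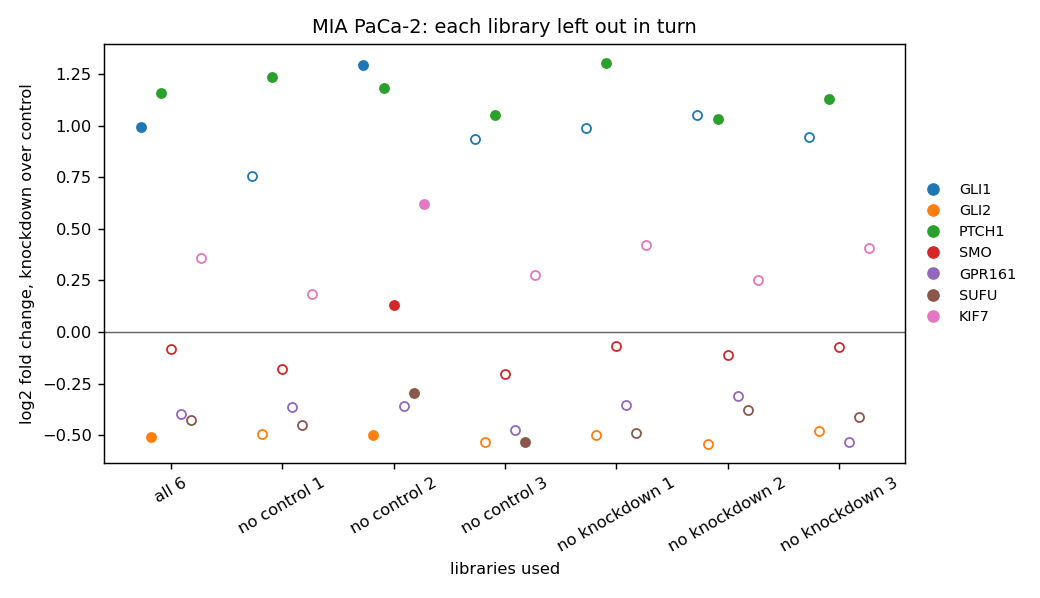
Log2 fold change of the 7 Hedgehog genes fitted in MIA PaCa-2, with all 6 libraries and with each library left out in turn, on the scale of FPKM + 0.1. Filled points have an adjusted p below 0.05. PTCH1 was filled in every column, whereas without control replicate 2 the count of genes below 0.05 was 6 of 7 and SMO moved above 0.

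Without MIA PaCa-2 control replicate 2, 6 of 7 members were called, with a background of 63.9% of genes, against 3 of 7 with all libraries. GLI1, PTCH1, KIF7 and SMO were then higher and GLI2 and SUFU lower after knockdown.

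Beyond the members, 66 other genes of the pathway were examined in 5 lists, which together gave 22 lower and 20 higher of 52 fitted genes in PANC1 (80.8% called, background 66.1%), 14 lower and 6 higher of 54 in MIA PaCa-2 (37.0%, background 35.6%) and 9 lower and 5 higher of 52 in PATU8988T (26.9%, background 31.4%). Without MIA PaCa-2 control replicate 2, there were 23 lower and 14 higher (background 63.9%). Among the ligands and the genes for their release, SHH fell in the lines that read it. It went from 2.13, 2.38 and 2.56 FPKM to 1.28, 1.16 and 1.46 in PANC1, a log2 fold change of -0.81 (adjusted p = 0.000221). The MIA PaCa-2 values went from 3.45, 4.39 and 3.597 FPKM to 1.48, 1.55 and 1.48, a log2 fold change of -1.28 (adjusted p = 0.000788), or -1.18 without control replicate 2. The groups did not overlap in either line, and PATU8988T had 2 to 5 reads of SHH per library. HHAT, the enzyme that attaches palmitate to the ligand, was called higher in PANC1 (1.005, adjusted p = 1.04e-05) and PATU8988T (0.38, adjusted p = 0.0229), and measured 0.78 (adjusted p = 0.0515) in MIA PaCa-2, or 0.86 (adjusted p = 0.0287) without control replicate 2. DISP1, which releases ligand from the cell, rose in PANC1 (0.57, adjusted p = 0.000117) and measured 0.14 in MIA PaCa-2 (adjusted p = 0.557), or 0.07 without control replicate 2. In this list, 1 gene was lower and 2 higher of 4 fitted in PANC1, 1 lower of 3 in MIA PaCa-2 and 1 higher of 2 in PATU8988T, few genes to set against backgrounds of 66.1%, 35.6% and 31.4%. Without control replicate 2, 1 was lower and 1 higher in MIA PaCa-2 (background 63.9%).

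Of the co-receptors, CDON rose in PANC1 (0.38, adjusted p = 0.0314) and fell in PATU8988T (-0.60, adjusted p = 0.00125), and GAS1 fell in MIA PaCa-2 (-0.86, adjusted p = 0.00889, and -0.69 without control replicate 2), with 1 gene called in each line, of 3, 4 and 3 fitted in PANC1, MIA PaCa-2 and PATU8988T (backgrounds 66.1%, 35.6% and 31.4%). CDON in MIA PaCa-2 measured -0.14 (adjusted p = 0.475), or -0.24 (adjusted p = 0.105) without control replicate 2. The list of kinases and ubiquitin ligases acting on GLI or SMO had 9 lower and 7 higher of 19 fitted in PANC1, 6 lower and 0 higher of 20 in MIA PaCa-2, and 2 lower and 3 higher of 20 in PATU8988T. The shares called were 84.2%, 30% and 25%, against 66.1%, 35.6% and 31.4% of all genes. In MIA PaCa-2 without control replicate 2 this became 10 lower and 4 higher, with a background of 63.9%. CSNK1A1, a casein kinase that phosphorylates GLI proteins, fell in PANC1 from 50.1, 52.4 and 54.1 FPKM to 16.4, 16.4 and 17.2, a log2 fold change of -1.64 (adjusted p = 1.33e-09). It fell by 0.96 on the log2 scale in MIA PaCa-2 (adjusted p = 0.000768, and -1.05 without control replicate 2) and measured -0.12 in PATU8988T (adjusted p = 0.0735). PRKACB, a catalytic subunit of protein kinase A, rose in PANC1 (0.48, adjusted p = 9.04e-08) and measured 0.53 in MIA PaCa-2 (adjusted p = 0.247), or 0.14 without control replicate 2. CUL1, a scaffold of ubiquitin ligases, fell in MIA PaCa-2 (-0.66, adjusted p = 0.00433, and -0.77 without that control) and rose in PATU8988T (0.14, adjusted p = 0.025). ARRB2, an arrestin that binds SMO, was lower in all 3 lines, with log2 fold changes of -0.71, -0.80 and -0.28 (adjusted p = 2.51e-05, 0.00978 and 0.00443), and -0.62 in MIA PaCa-2 without that control. FBXW11, a ubiquitin ligase subunit, was called higher in PANC1 (0.30, adjusted p = 8.91e-06) and PATU8988T (0.20, adjusted p = 0.00505). Its value in MIA PaCa-2 was 0.26 (adjusted p = 0.161), and 0.12 (adjusted p = 0.0149) without that control.

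Genes for delivery through the cilium gave 6 lower and 9 higher of 19 fitted in PANC1, 3 lower and 5 higher of 18 in MIA PaCa-2, and 3 lower and 1 higher of 18 in PATU8988T. The shares called were 78.9%, 44.4% and 22.2%, against 66.1%, 35.6% and 31.4% of all genes. In MIA PaCa-2 without control replicate 2 the counts were 8 lower and 8 higher, with a background of 63.9%. KIF3A, a motor subunit that carries cargo toward the tip, was lower in all 3 lines, with log2 fold changes of -1.02, -0.85 and -0.68 in PANC1, MIA PaCa-2 and PATU8988T (adjusted p = 1.57e-06, 0.0118 and 0.00266), and -1.03 in MIA PaCa-2 without control replicate 2. DYNC2H1, the heavy chain of the motor that returns cargo to the base, rose in PANC1 (0.77, adjusted p = 0.000124) and MIA PaCa-2 (1.76, adjusted p = 0.00252, and 1.47 without that control) and fell in PATU8988T (-0.31, adjusted p = 0.0135). BBS1, a subunit of the BBSome that carries receptors out of the cilium, showed the same order of signs at 0.49, 0.83 and -0.24 (adjusted p = 0.000669, 0.00424 and 0.0201), and 0.95 in MIA PaCa-2 without that control. IQCE, which helps to anchor the EvC complex that relays SMO, rose in PANC1 (0.62, adjusted p = 6.56e-06). All its knockdown libraries were below all controls in MIA PaCa-2, at -0.21 (adjusted p = 0.161), and without that control it was called lower (-0.13, adjusted p = 0.0497).

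Of the other target genes, 6 were lower and 1 higher of 7 fitted in PANC1, 3 lower and 1 higher of 9 in MIA PaCa-2, with or without control replicate 2, and 3 lower and 0 higher of 9 in PATU8988T. The shares called were 100%, 44.4% and 33.3%, against 66.1%, 35.6% (63.9% without that control) and 31.4% of all genes. JAG2, a Notch ligand, measured 3.59, 3.42 and 3.65 FPKM in the PATU8988T controls and 1.57, 1.82 and 1.82 after knockdown, and was lower in all 3 lines with log2 fold changes of -0.92, -0.97 and -0.997 (adjusted p = 9.01e-06, 0.0105 and 8.15e-05), and -0.73 in MIA PaCa-2 without control replicate 2. CCND1, the cyclin of early G1, was also lower in all 3, by -0.87, -0.27 and -0.20 (adjusted p = 1.16e-08, 0.0243 and 0.0028), and -0.28 in MIA PaCa-2 without that control. FOXM1, a factor of the G2 phase, fell in PANC1 (-0.85) and MIA PaCa-2 (-0.66, and -0.67 without that control) and measured 0.03 in PATU8988T (adjusted p = 0.548). CCND2, another G1 cyclin, averaged 0.412 ± 0.0838 FPKM in the PANC1 control and 1.62 ± 0.167 after knockdown (SD, n = 3 each), a rise of 1.76 on the log2 scale (adjusted p = 8.87e-06). In MIA PaCa-2 it rose by 3.03 (adjusted p = 0.000291), from 0.0795 ± 0.0416 to 1.34 ± 0.0474 FPKM, or by 3.14 without that control. Its controls there held 8 to 27 reads each and averaged below 0.1 FPKM. It thus passed the filter only through the knockdown libraries, and its p-value in this line is a description only. In PATU8988T, CCND2 measured -0.07 (adjusted p = 0.573).

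The genes whose pattern was most like that of the members fitted in all lines were ranked by Pearson's r over the 18 libraries, centred within each line, among 10944 genes, as a description only, since the points share libraries and conditions. IGF2R, DENND5A and SPAG4 were most like PTCH1 (r = 0.945, 0.944 and 0.94). CTNNBL1, POMGNT2 and KRT8 were most like SUFU (0.958, 0.915 and 0.911), RHOC and MAN2C1 among the most like KIF7 (0.903 and 0.882), and TCTA, KIF26A and NECTIN1 most like GPR161 (0.878, 0.868 and 0.862).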

How the data were processed

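Per the methods of the study, RNA was taken with TRIzol, read on a NovaSeq and mapped by HISAT2, and HTSeq-count gave the reads per gene, whereas the labels name another extraction and library kit. The labels list hg38 beside the mouse builds GRCm38 and mm10 without saying which was used, and the annotation was not given in the sources used here. The authors deposited FPKM values, already scaled by library total and gene length. Each gene's values were whole multiples of a unit, from which reads and lengths were recovered in every line (at least 99.98% of genes above 0). Simulated recovery in PATU8988T was exact for 98.39% of 13035 genes with a mean of at least 20 reads. Over all 20648 genes above 0 it was exact for 92.96%, so genes of fewer reads were recovered exactly less often. The authors' methods compare each line with DESeq2, and because FPKM are not counts, limma 3.58.1 in R 4.3.3 was used here (lmFit, eBayes with trend) on log2(FPKM + 0.1), two-sided, with Benjamini-Hochberg adjustment over all genes that averaged 0.1 FPKM or more in the line. Fold changes are on that scale, which understates changes of low genes. Differences between lines were interaction terms over 18 libraries. Simulated 2-fold changes were found for 99 of 100 genes above 1 FPKM in PANC1 and all 100 in each other line. Between 0.1 and 1 FPKM, 74 of 98, 49 of 94 and 47 of 98 were found in PANC1, MIA PaCa-2 and PATU8988T. Unchanged genes called numbered 15, 12 and 10. All simulated libraries were drawn with the same spread, and none stood apart as MIA PaCa-2 control replicate 2 did. The counts for that line therefore do not give the detection in its real libraries.

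The members and the lists of other genes were chosen with earlier results of these data known, and support nothing by themselves. Besides the members and OFD1, the text names the 2 genes of each list with the smallest p in each line, and for likeness the 3 genes of highest r, except that a few of these genes are not reported here. Alternatives were pseudocounts of 1 and 0.01, a filter of 1 FPKM or none, upper quartile scaling, a replicate block, limma voom on recovered reads and leaving out each library. Fits of 12 libraries, and voom without a filter, were added after the data were seen. Gene positions and neighbours are those of GENCODE on GRCh38, which may not be the annotation the authors used. Over 9 pairs, the deviations of same-numbered libraries correlated from -0.032 to 0.0699 across all fitted genes. This cannot show whether single genes share an effect of the replicate number, so the main fits did not pair the samples.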

Additional observations from a re-analysis of the deposited data

Results flagged for a closer look

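The change of PTCH1 on OFD1 knockdown differed between lines, by an interaction term in the fit of 18 libraries. The change in PANC1 minus that in MIA PaCa-2 was -1.403 (adjusted p = 2.69e-05), and the change in MIA PaCa-2 minus that in PATU8988T was 1.546 (adjusted p = 5.5e-06). The change of SUFU in PANC1 minus that in MIA PaCa-2 was 0.6849 (adjusted p = 0.00196), and minus that in PATU8988T it was 0.4235 (adjusted p = 0.0412).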

How the results depend on the processing

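In single genes, 412 of 467 alternative values kept direction and side of the threshold, 36 were no longer and 9 newly past it, and 10 turned sign. The sign turned for SMO in MIA PaCa-2 with upper quartile scaling (0.00939) and without control replicate 2 (0.132, range -0.203 to 0.132 leaving out 1 library), for GLI3 in PANC1 without control replicate 2 or knockdown replicate 1 or 3 (-0.107, -0.0103 and -0.0833, range -0.107 to 0.177), and for the differences between lines at a pseudocount of 1: PANC1 minus MIA PaCa-2 gave 0.00847 for KIF7 and 0.0942 for GPR161, PANC1 minus PATU8988T gave 0.138 and MIA PaCa-2 minus PATU8988T 0.0441 for GPR161. Without MIA PaCa-2 control replicate 1, KIF7 in PANC1 minus MIA PaCa-2 was 0.0405 (range -0.397 to 0.0405). The cause was not tested.

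The members called went from 3 to 5 with voom in PANC1. In MIA PaCa-2 they went from 3 to 0 at a filter of 1 FPKM, which removes GLI1, GLI2 and PTCH1, to 1 with no filter, to 1 with the replicate block, and to between 1 and 6 leaving out 1 library. Members whose change differed between lines went from 2 to 1 (PANC1 and MIA PaCa-2) and from 1 to 0 (MIA PaCa-2 and PATU8988T) at a filter of 1 FPKM. For PANC1 and PATU8988T they went from 1 to 0 with the replicate block and to 0 or 1 leaving out 1 library, and for MIA PaCa-2 and PATU8988T to 1 or 2. The other genes called ranged from 14 to 37 in MIA PaCa-2 and from 7 to 17 in PATU8988T leaving out 1 library, and were 9 in PATU8988T with no filter. With the replicate block, GLI1 and GLI2 in MIA PaCa-2 had adjusted p of 0.0577 and 0.118 and were not called. Whether the replicate numbers pair the samples was not settled. Upper quartile scaling moved the share of called genes that were higher from 50.8% to 62.0% in MIA PaCa-2, where the median of all genes became 0.105, and from 49.2% to 39.9% in PATU8988T. At this depth, genes of a few reads per library, such as GLI1 and GLI2 in PATU8988T, lay below the filter, and without it their calls differed between voom and FPKM.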
